A study of Mus musculus with 6 samples.

Results

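Motor neurons are not equally sensitive to disease, and the genes described here are 10 that have been tied to fast, vulnerable motor neurons or to slow, small or resistant ones: Mmp9, Chodl, Rbfox3, Sv2a, Esrrb, Esrrg, Igf1, Syt13, Epha4 and Timp3. They were chosen by name, with earlier results of these data known. Every probe set that the platform annotation maps to exactly 1 of these symbols was taken. This gave 28 of the 45037 probe sets measured, and 10 of the 18193 genes that a probe set names alone. RNA came from motor neurons of the mouse brainstem in 2 groups of 3 samples each, wild type (WT) mice and SOD1 mice, whose name is that of the copper-zinc superoxide dismutase gene, in which mutations cause familial amyotrophic lateral sclerosis. All 6 RNA samples went through 2 rounds of T7-based amplification before hybridisation to an Affymetrix mouse array. The sources used here do not give the SOD1 variant, the promoter that drives it, the age and strain of the mice, the nuclei sampled or any pooling of animals. Since the labels do not tie the 3 samples of a group to different mice, p-values describe the spread over these 6 samples alone, and some of that spread may be technical.

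A motor unit is a motor neuron with the muscle fibres it drives. Fast motor neurons drive fast-fatigable fibres and are among the first to withdraw from muscle in SOD1 mice, slow ones withdraw later, and gamma motor neurons, which drive the small fibres inside muscle spindles, are largely spared. In the brainstem, the facial, trigeminal and hypoglossal motor neurons degenerate in this disease, whereas the oculomotor neurons that move the eyes are relatively resistant.

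Levels are given as log2 of the normalised signal plus 16, and changes as the SOD1 mean minus the WT mean on that scale ± SE, with n = 3 arrays per group. Adding 16 understates the change of dim probe sets, and levels of different probe sets are not compared with each other. The median deposited signal was 267 to 315 over the 6 arrays, and their number limits the precision. An array's background level was taken from 27 bacterial control probe sets, at their 95th percentile, and lay between 7.21 and 7.61. SOD1 replicates 1 and 2 stood apart from the other 4 arrays in sex-linked genes. Xist, transcribed from the inactive X chromosome, was at 14.71 and 14.63 on them and at 7.27 to 7.75 on the others, and the Y-linked gene Eif2s3y was at 5.52 and 7.87 against 11.60 to 13.23. Since all 3 WT arrays are low in Xist, sex is partly confounded with genotype. Of the 50 probe sets past the threshold among all those tested, 8 were also past it with a term for Xist, which called 58, and 8 with SOD1 replicates 1 and 2 left out, which called 49. The change of a probe set of the 10 genes with these 2 arrays left out, called that on the Xist-low arrays, is given where it differs by over 1.5 times. Of 12 motor neuron markers on the array, 11 passed the signal filter, among them Isl1, Prph and the neurofilament genes, and 1, Mnx1, did not. No more than 1 of the 12 was at background on any array, and their summed signal was 528551 to 589428 in WT and 480235 to 533376 in SOD1. The brightest probe sets weigh most in that sum, those of Nefl, Nefh and Nefm (WT means of 17.39, 16.80 and 16.76). It therefore does not describe the 12 markers evenly.

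Of the 28 probe sets, 26 lay above the signal filter, and all 10 genes kept at least 1. None of the 26 passed the test between SOD1 and WT (limma, Benjamini-Hochberg adjustment over all probe sets kept, threshold 0.05), where 0.185% of the 27022 probe sets did, 0.0629% higher and 0.122% lower in SOD1. The lowest adjusted p was 0.112, for Rbfox3. At an unadjusted p under 0.05 there were 9, against 14.7% of all probe sets, with 6 of the 26 (23.1%) lower in SOD1, against 7.56% of all, and 3 of the 26 (11.5%) higher, against 7.1%. In 6 (23.1%) every SOD1 array lay below every WT array, as it did in 9.81% of all, and in 0 every SOD1 array lay above, as in 10.5% of all, or 20.3% in either direction. The genes were chosen with earlier results of these data known, so these shares only describe the probe sets. Probe sets of a gene are not independent of each other, and these 9 belong to 5 genes. They are both probe sets of Mmp9, 2 of the 3 of Rbfox3, 1 of the 4 of Timp3 and 1 of the 3 of Esrrg on the lower side, and 3 of the 4 of Igf1 on the higher side. The median change of the 26 was -0.35, against -0.0063 for all 27022 probe sets. Genes with more probe sets weigh more in that median, so it does not describe the 10 genes evenly. On the brightest probe set of each gene, Mmp9, Chodl, Esrrb, Rbfox3 and Timp3 had negative estimates. Those of Esrrg, Sv2a, Igf1, Syt13 and Epha4 were positive. Summed signals of markers of other cells differed between the groups as well. Among all 13123 genes, each on its brightest probe set, 0.122% passed the test on the higher and 0.152% on the lower side. The summed signal of 9 astrocyte markers was 202610 to 209777 in WT and 243585 to 248486 in SOD1, with 2 of 9 past the test, both higher, and 0 without SOD1 replicate 1, SOD1 replicate 2, both of them or WT replicate 2, and 1 without WT replicate 1. That of 8 oligodendrocyte markers was 184222 to 206307 in WT and 232376 to 255148 in SOD1, with 0 of 8 past the test, and no marker of either list was at background on any array. That of 10 markers of other neurons was 2711 to 4083 in WT and 4295 to 9225 in SOD1, where the highest value was that of SOD1 replicate 3. Of 8 tested, 0 passed, and 5 estimates were positive and 3 negative, with a median of 0.45. Without SOD1 replicate 3 these were 4 and 4, with a median of -0.085. Between 2 and 3 of the 10 were at background on each WT array and 1 to 4 on each SOD1 array. The part of all these other cells in the values of the 10 genes was not tested.

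**Figure D1:**
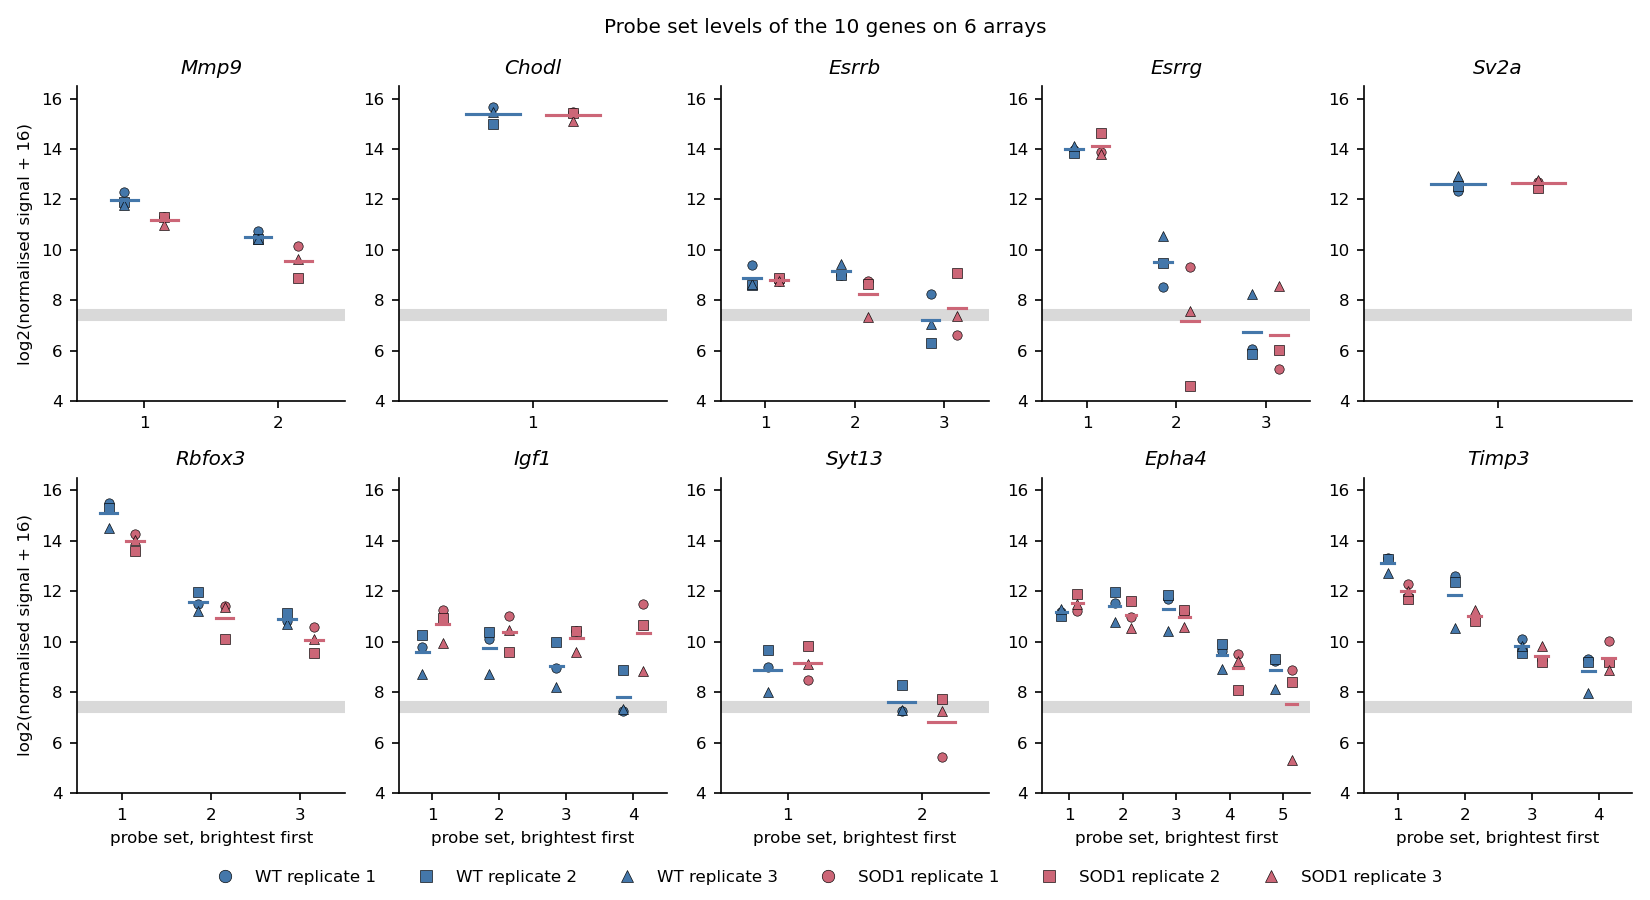
Levels of the 28 probe sets, 1 panel per gene, with probe sets ordered from the brightest and the y axis in log2(normalised signal + 16). Points are arrays, short lines are group means of 3 arrays, and the grey band is the range of the background level over the arrays. Both Mmp9 probe sets lie lower on all 3 SOD1 arrays, Chodl and Sv2a overlap between the groups, and the Igf1 points overlap through SOD1 replicate 3 or 2.

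Of the genes of fast and alpha motor neurons, the large neurons that drive ordinary muscle fibres, 2 had lower estimates in SOD1 and 1 was level. Mmp9 encodes a secreted matrix metalloproteinase that fast motor neurons express, and lowering it delays their denervation in SOD1 mice. Its brighter probe set (1416298_at) was at 12.30, 11.90 and 11.80 on WT replicates 1, 2 and 3, and 11.33, 11.30 and 10.97 on SOD1 replicates 1, 2 and 3. The groups did not overlap, and the change was -0.80 ± 0.26, which corresponds to a signal 1.74-fold lower in SOD1 (limma, unadjusted p = 0.0114, adjusted p = 0.211). The second probe set (1448291_at) was at 10.74, 10.42 and 10.43 on WT replicates 1, 2 and 3, and 10.16, 8.88 and 9.66 on SOD1 replicates 1, 2 and 3. Here too all SOD1 arrays lay below all WT arrays, with SOD1 replicate 2 lowest, and the change was -0.97 ± 0.38 (limma, adjusted p = 0.278). Without SOD1 replicate 2 that change was -0.62. Against WT, SOD1 replicate 3 alone gave -1.03 for the brighter probe set and -0.87 for the dimmer one. In these bulk samples fewer cells of a type and less RNA per cell cannot be told apart.

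Chodl encodes chondrolectin, a membrane protein of the C-type lectin family that marks fast motor neurons. It is read by 1 probe set, which was bright on every array, at 15.67, 14.99 and 15.47 on WT replicates 1, 2 and 3, and 15.46, 15.43 and 15.12 on SOD1 replicates 1, 2 and 3. The groups overlapped, with both the highest and the lowest array in WT, the change was -0.038 ± 0.18 with a 95% interval of -0.42 to 0.35 (limma, adjusted p = 0.943), and its sign turned with the scaling, to 0.071 without further scaling of the deposited signal and to 0.18 under median centring. On the Xist-low arrays it was -0.26. A doubling or halving of the signal lies outside that interval. Mmp9 and Chodl both mark fast motor neurons, and whether their estimates differ from each other was not tested.

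Rbfox3 encodes NeuN, a splicing regulator that is abundant in alpha motor neurons and scarce in gamma motor neurons. Its brightest probe set (1436450_at) was at 15.51, 15.31 and 14.50 on WT replicates 1, 2 and 3, and 14.29, 13.62 and 14.02 on SOD1 replicates 1, 2 and 3. All 3 SOD1 arrays lay below the lowest WT array, WT replicate 3, and the change was -1.13 ± 0.26, a signal 2.19-fold lower (limma, unadjusted p = 0.000991, adjusted p = 0.112). Without WT replicate 3 it was -1.43 and passed the test (limma, adjusted p = 0.0294), and over the other alternatives the adjusted p ran from 0.0575 to 0.35. The second probe set was at 11.50, 11.99 and 11.23 on WT replicates 1, 2 and 3, and 11.40, 10.12 and 11.36 on SOD1 replicates 1, 2 and 3. There SOD1 replicate 2 was low, while replicates 1 and 3 lay among the WT arrays, and the change of -0.61 ± 0.38 was -0.19 without SOD1 replicate 2 and -0.21 on the Xist-low arrays. The third probe set was at 10.82, 11.15 and 10.72 on WT replicates 1, 2 and 3, and 10.60, 9.55 and 10.11 on SOD1 replicates 1, 2 and 3, again without overlap, a change of -0.81 ± 0.35 (limma, adjusted p = 0.316).

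The 250 bases before the RefSeq start of Rbfox3 (GRCm38.p6, chr11:118761042-118761291, minus strand) are shown because this gene had the lowest p of the 10. Windows of this kind were given for 8 of the 10 genes, 12 in all, with Mmp9 and Syt13 not among them. They are written 5′ to 3′ along the gene, and capitals mark matches on either strand to GGGCGG (the GC box), TATAAA (the TATA box), TGANTCA (the AP-1 site) or AAGGTCA (the core of the site of oestrogen-related receptors).
Rbfox3: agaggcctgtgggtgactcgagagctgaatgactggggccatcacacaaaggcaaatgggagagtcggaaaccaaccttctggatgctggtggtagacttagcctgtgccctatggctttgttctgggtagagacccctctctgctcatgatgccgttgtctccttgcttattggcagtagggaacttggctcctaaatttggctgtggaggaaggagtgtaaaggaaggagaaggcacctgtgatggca
The Rbfox3 window holds 0 matches to these letters and has a GC content of 52.8%, against a median of 52.4% over 32817 windows. AAGGTCA was in 0 of the 12 windows and in 4.08% of all windows.

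The 3 other fast or alpha motor neuron genes tested had positive estimates, and Mmp9, Chodl and Rbfox3 the 3 negative ones. Of the 6 genes tested in this list, members included, 0 passed the test. Among all 13123 genes, 0.122% passed on the higher and 0.152% on the lower side. At an unadjusted p under 0.05 (limma), 2 of the 6 were lower, the members Mmp9 and Rbfox3, where 8.87% of all genes were. The list median was 0.0093, against -0.012 over all genes. Stk32a, a kinase gene of alpha motor neurons, was at 0.36 ± 0.33, Vipr2, a receptor of vasoactive intestinal peptide, at 0.29 ± 0.38, and the potassium channel gene Kcnq5 at 0.057 ± 0.67. Calca and Spp1 were not analysed here. Among the 2 other Rbfox genes, which encode splicing factors of the same family, Rbfox1 was at -0.29 ± 0.14 (limma, adjusted p = 0.377) and Rbfox2 at -0.86 ± 0.52 (adjusted p = 0.471). Of the 11 motor neuron markers tested, 5 had positive and 6 negative estimates and 0 passed the test. At an unadjusted p under 0.05 (limma), 4 were lower and 1 higher, where 8.87% and 7.67% of all genes were. Without SOD1 replicate 1, 1 marker passed, on the lower side, and 0 passed with any other single array left out. The lowest p among the markers were those of Ache, acetylcholinesterase (-1.06 ± 0.25), and Slc18a3, which loads acetylcholine into vesicles (-0.995 ± 0.25). Isl1, a motor neuron transcription factor, was at 0.23 ± 0.13.

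**Figure D2:**
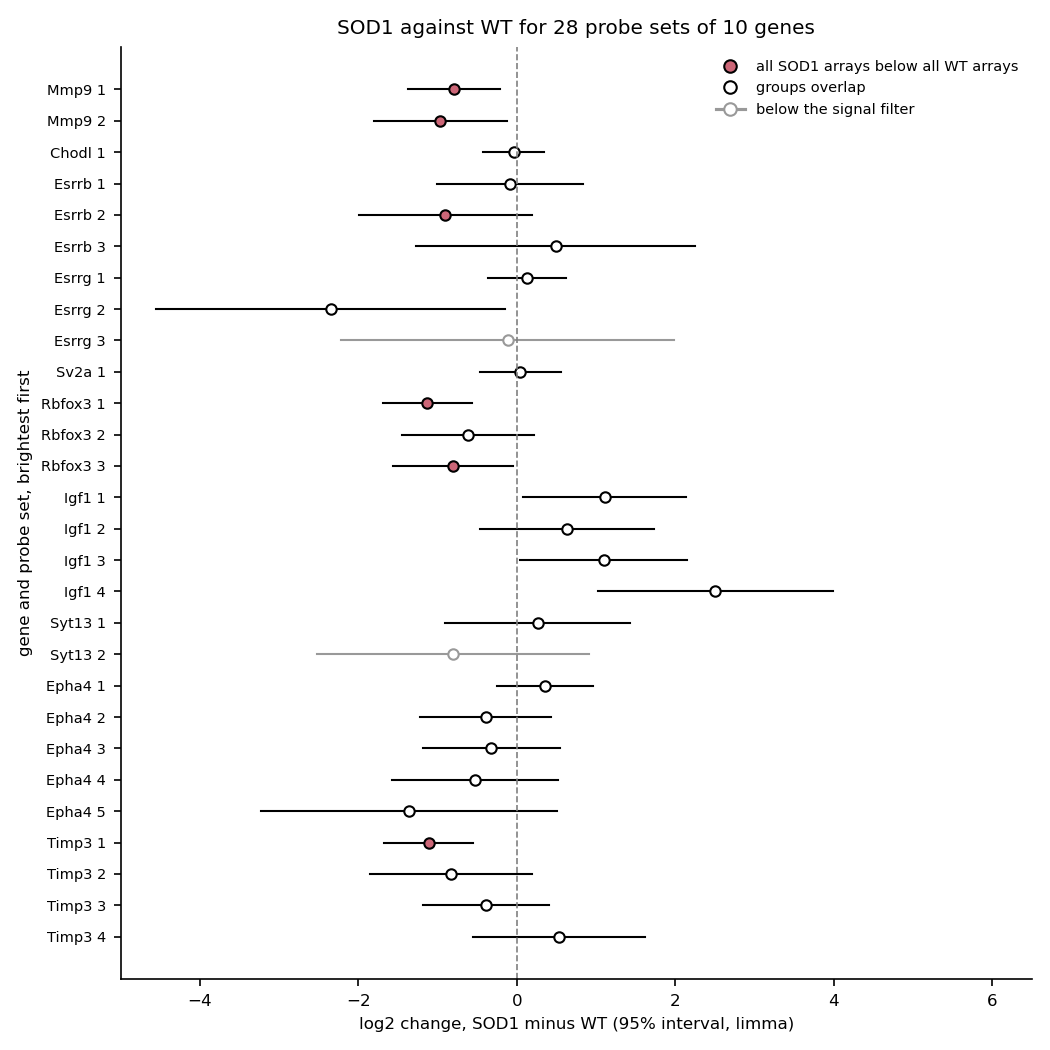
Log2 change, SOD1 minus WT, of the 28 probe sets with 95% intervals from limma (n = 3 arrays per group), probe sets numbered from the brightest of each gene. Filled points mark the 6 probe sets whose SOD1 arrays all lie below all WT arrays, and grey marks the 2 below the signal filter, fitted together with all probe sets.

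No gene of slow motor neurons passed the test, and Sv2a, the best known of them, was level. Sv2a encodes a synaptic vesicle glycoprotein that marks the terminals of slow motor neurons. It is read by 1 probe set, at 12.34, 12.53 and 12.93 on WT replicates 1, 2 and 3, and 12.68, 12.45 and 12.79 on SOD1 replicates 1, 2 and 3. The groups overlapped, and the change was 0.042 ± 0.23 with a 95% interval of -0.47 to 0.55 (limma, adjusted p = 0.953), negative when WT replicate 1 (-0.087) or SOD1 replicate 3 (-0.033) was left out and 0.19 on the Xist-low arrays. The related vesicle genes Sv2b and Sv2c were at 0.17 ± 0.15 and -0.85 ± 0.65. Prkcd, a protein kinase C gene used as a marker of slow motor neurons, was at 9.26, 8.47 and 9.09 in WT and 10.88, 9.18 and 10.56 in SOD1, a change of 1.27 ± 0.48 that did not pass (limma, adjusted p = 0.257). Of the 5 genes of this list 0 passed, 3 estimates were positive and 2 negative, and the median was 0.042.

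Esrrb encodes an orphan nuclear receptor of the oestrogen-related family, which has been linked to slow motor neurons. Its 3 probe sets did not go one way. The brightest (1441921_x_at) was at 9.40, 8.62 and 8.66 on WT replicates 1, 2 and 3, and 8.75, 8.88 and 8.78 on SOD1 replicates 1, 2 and 3. Only WT replicate 1 stood above the rest, and the change was -0.087 ± 0.42, positive (0.17) without that array. The second was at 9.02, 9.03 and 9.42 on WT replicates 1, 2 and 3, and 8.78, 8.66 and 7.33 on SOD1 replicates 1, 2 and 3, with all SOD1 arrays below all WT arrays and SOD1 replicate 3 near background. Its change was -0.90 ± 0.50 (limma, adjusted p = 0.431), against -0.44 without SOD1 replicate 3 and -1.83 with SOD1 replicate 3 as the only SOD1 array. The third was at background on 2 WT arrays and 1 SOD1 array and had a change of 0.49 ± 0.80, the only positive one, which became -0.21 without SOD1 replicate 2 and 0.16 on the Xist-low arrays.

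Esrrg, the paralogue of Esrrb that marks gamma motor neurons, was bright on its first probe set (1455267_at), at 13.98, 13.84 and 14.14 on WT replicates 1, 2 and 3, and 13.88, 14.65 and 13.81 on SOD1 replicates 1, 2 and 3. SOD1 replicate 2 was the highest array and the other 2 lay within the WT range or just below it. The change was 0.13 ± 0.22 with a 95% interval of -0.36 to 0.62 (limma, adjusted p = 0.826), and it was -0.14 without SOD1 replicate 2 and -0.18 for SOD1 replicate 3 alone. A second, dimmer probe set was at 8.52, 9.48 and 10.55 on WT replicates 1, 2 and 3, and 9.32, 4.61 and 7.56 on SOD1 replicates 1, 2 and 3. The SOD1 arrays were spread from below background to a level within the WT range, and the change of -2.35 ± 1 (limma, unadjusted p = 0.0381, adjusted p = 0.313) was -1.08 without SOD1 replicate 2. The third lay below the filter, at background on 2 arrays of each group, with a change of -0.12 ± 0.97, or 1.82 on the Xist-low arrays. The 3 probe sets of Esrrg thus gave different estimates, and whether these differ from each other was not tested.

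Of the 7 gamma motor neuron genes tested, Esrrg included, 0 passed, 4 estimates were positive and 3 negative, and the median was 0.13. Gfra1, a receptor of glial cell line-derived neurotrophic factor that gamma motor neurons express strongly, was at 0.28 ± 0.16. Plch1, a phospholipase C gene, was at 0.49 ± 0.25 and Htr1d, a serotonin receptor gene, at -0.81 ± 0.62. Among the genes that work with the oestrogen-related receptors, Ppargc1b, a coactivator of mitochondrial genes, had the lowest p. It was at 12.13, 11.69 and 11.65 in WT and 10.93, 10.22 and 10.51 in SOD1, without overlap (-1.27 ± 0.30, limma, adjusted p = 0.117). Its relative Ppargc1a was at -0.12 ± 0.20 and the third receptor gene of the family, Esrra, at 0.055 ± 0.27. Of these 7 genes, Esrrb and Esrrg included, 0 passed, and the median was -0.087.

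Syt13 encodes a synaptotagmin that does not bind calcium and that is higher in resistant oculomotor neurons than in vulnerable motor neurons. Its brighter probe set (1434470_at) was at 8.98, 9.69 and 7.99 on WT replicates 1, 2 and 3, and 8.48, 9.83 and 9.13 on SOD1 replicates 1, 2 and 3. SOD1 replicate 2 lay just above the WT arrays and WT replicate 3 below the SOD1 arrays, with the other 4 in between, and the change was 0.26 ± 0.53 with a wide 95% interval of -0.90 to 1.43 (limma, adjusted p = 0.858), negative without WT replicate 3 (-0.19) or SOD1 replicate 2 (-0.081). The other probe set lay below the filter, at background on 2 SOD1 arrays, and had a change of -0.81 ± 0.79. That was -0.12 without SOD1 replicate 1, -0.46 without WT replicate 2, -1.27 without SOD1 replicate 2 and -0.37 on the Xist-low arrays. Of the 5 oculomotor or resistant genes tested, 0 passed, 2 estimates were positive and 3 negative, and the median was -0.31. Pvalb, a calcium buffer, was at -0.31 ± 0.66, Calb2, the calretinin gene, at -0.67 ± 1.21, and Phox2a, a transcription factor needed for oculomotor neurons, at 0.17 ± 0.53. Calb1 lay below the filter.

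Within the families of Sv2a and Syt13, 1 of 14 genes passed the test. Among all 13123 genes, 0.122% passed on the higher and 0.152% on the lower side. The list was chosen with earlier results of these data known, so this count only describes it. Syt2, the calcium sensor of fast transmitter release at motor terminals, was at 15.28, 15.27 and 15.30 in WT and 14.51, 14.09 and 14.28 in SOD1. It fell 1.98-fold (-0.99 ± 0.14, limma, adjusted p = 0.0327). With 1 array left out it ran from -1.10 to -0.89, and it passed without WT replicate 3 or SOD1 replicate 1 but not with WT replicate 1 or 2 left out (limma, adjusted p = 0.103 and 0.137), nor with SOD1 replicate 2 or 3 left out (limma, adjusted p = 0.107 and 0.0756), nor on the Xist-low arrays (limma, adjusted p = 0.0825). Syt4 was at 0.34 ± 0.14, Syt3 at -0.69 ± 0.29 and Syt7, a slower calcium sensor, at -0.83 ± 0.43, none past the threshold. Estimates were positive for 5 and negative for 9 of the 14, with a median of -0.17.

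Igf1, a growth factor that supports motor neurons and their axons and that microglia also make, had the highest estimates of the 10 genes, on all 4 of its probe sets. The brightest (1434413_at) was at 9.81, 10.25 and 8.73 on WT replicates 1, 2 and 3, and 11.26, 10.92 and 9.94 on SOD1 replicates 1, 2 and 3. SOD1 replicates 1 and 2 lay above every WT array and SOD1 replicate 3 below WT replicate 2, and the change was 1.11 ± 0.47, 2.16-fold (limma, unadjusted p = 0.0365, adjusted p = 0.308). The largest change was that of the dimmest probe set (1452014_a_at), at 7.25, 8.89 and 7.34 on WT replicates 1, 2 and 3, and 11.49, 10.65 and 8.85 on SOD1 replicates 1, 2 and 3. WT replicates 1 and 3 were near background there, SOD1 replicate 3 was level with WT replicate 2, and the change was 2.50 ± 0.68, 5.67-fold (limma, unadjusted p = 0.00337, adjusted p = 0.147). The second and the third probe sets had changes of 0.63 ± 0.50 and 1.09 ± 0.48.

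Without SOD1 replicates 1 and 2, the arrays high in Xist, 3 of the 4 Igf1 estimates were lower and that of the second probe set was slightly higher. SOD1 replicate 3 against WT gave 0.34, 0.72, 0.56 and 1.02 for the 4 probe sets, from the brightest to the dimmest, positive in each and none past the threshold. Leaving out WT replicate 3, the lowest array on 3 of the 4, gave 0.68 for the brightest and 0.12 for the second. For the second, leaving out WT replicate 2 gave 0.96, SOD1 replicate 1 0.30 and SOD1 replicate 2 1.01. For the third, WT replicate 3 left out gave 0.67. Markers of microglia, the macrophages that live in nervous tissue, were higher in SOD1 too. All 17 tested had positive estimates and 9 passed the test, with a median of 2.96. Among all 13123 genes, 0.122% passed on the higher side. Without SOD1 replicates 1 and 2 all 17 stayed positive with a median of 2.64, and 0 passed. With 1 array left out, 0 passed without WT replicate 2 or SOD1 replicate 2, 1 without SOD1 replicate 1, 4 without WT replicate 1, 5 without SOD1 replicate 3 and 8 without WT replicate 3. Their summed signal, over 18 genes, was 10623 to 46484 in WT and 120687 to 244252 in SOD1. Between 3 and 6 of the 18 were at background on each WT array and 0 or 1 on each SOD1 array, and 0 were at background on all arrays. The part of these cells in the Igf1 signal was not tested.

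**Figure D3:**
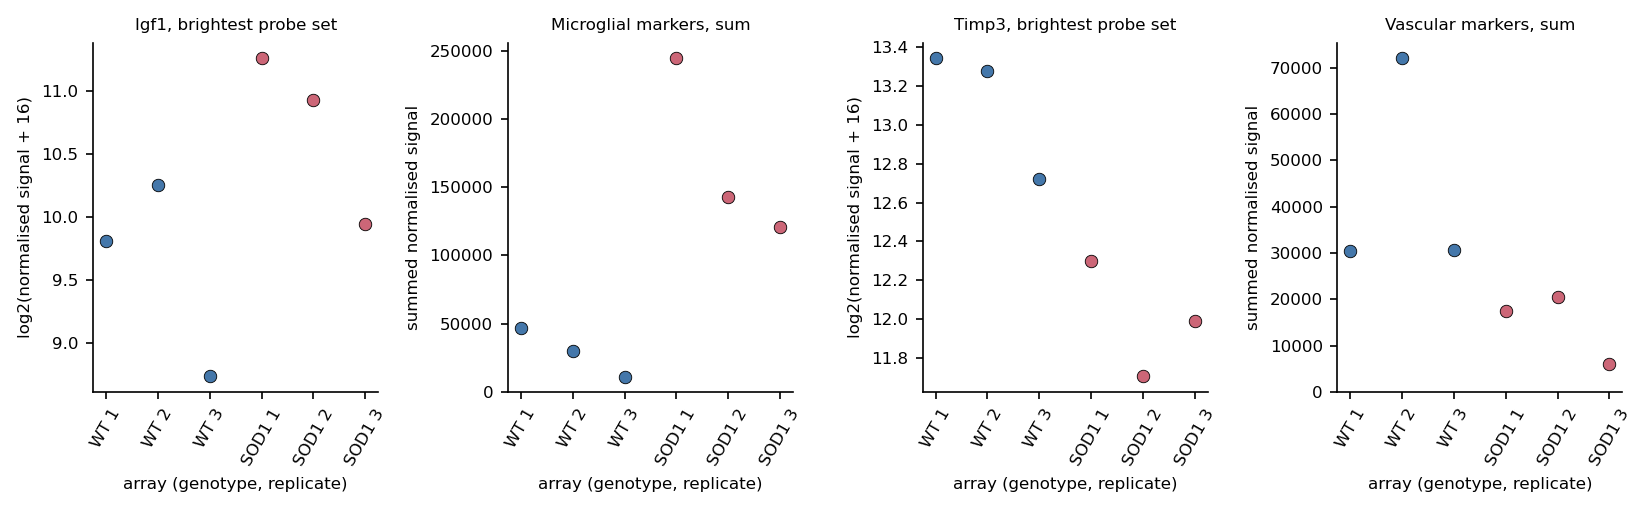
Igf1 (brightest probe set) beside the summed normalised signal of 18 microglial markers, and Timp3 (brightest probe set) beside that of 14 endothelial and mural markers, on each of the 6 arrays. Blue marks WT and red SOD1, and levels of single genes are in log2(normalised signal + 16). The microglial sum is highest on SOD1 replicate 1, as is Igf1. Among the WT arrays that sum is highest on replicate 1, whereas Igf1 is highest on replicate 2. The vascular sum is lowest on SOD1 replicate 3, whereas Timp3 is lowest on SOD1 replicate 2, which has the highest vascular sum of the SOD1 arrays.

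The 250 bases before the RefSeq start of Igf1 (GRCm38.p6, chr10:87860861-87861110, plus strand) are shown as those of the gene with the highest estimates, with capitals as before.
Igf1: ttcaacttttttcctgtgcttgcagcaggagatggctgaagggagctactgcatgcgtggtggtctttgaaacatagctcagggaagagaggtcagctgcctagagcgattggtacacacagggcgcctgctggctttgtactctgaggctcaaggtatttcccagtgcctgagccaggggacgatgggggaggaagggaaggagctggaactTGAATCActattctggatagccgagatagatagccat
They hold 1 match to TGANTCA, a sequence found in 6.75% of all windows, and 0 matches to the other letters, with a GC content of 52.8%.

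Most of the insulin-like growth factor system had estimates opposite in sign to Igf1. Of 13 genes tested, 0 passed, 2 estimates were positive and 11 negative, and the median was -0.78, against -0.012 over all genes. At an unadjusted p under 0.05, 6 were lower and 1, Igf1, was higher, where 8.87% and 7.67% of all genes were. Igf1r, the receptor of Igf1, was at 12.01, 12.22 and 12.13 in WT and 11.72, 11.30 and 11.56 in SOD1, without overlap (-0.59 ± 0.24, limma, adjusted p = 0.293). Igf2, the second ligand, which protects motor neurons and is high in oculomotor neurons, was at 12.56, 11.89 and 9.70 in WT and 9.86, 10.11 and 8.42 in SOD1 (-1.91 ± 0.67, adjusted p = 0.231). Of the binding proteins that hold these ligands outside cells, Igfbp7 was at -1.87 ± 0.48, Igfbp5 at -2.11 ± 0.72 and Igfbp6 at -2.10 ± 0.73. Igf2 and these binding proteins are also made by vessel walls and meninges. All 6 meningeal and choroid plexus markers tested had negative estimates, 0 passed, and their sum ranged from 25060 to 87940 in WT and from 8993 to 60270 in SOD1. With the Xist term and on the Xist-low arrays, 1 of the 6 estimates was positive. The same count held with WT replicate 1 or 2, or SOD1 replicate 2 or 3, left out alone. Without WT replicate 3 or SOD1 replicate 1 all 6 were negative, with 1 and 0 past the test. Up to 2 of 7 were at background on a WT array and up to 3 on a SOD1 array, and the part of these cells was not tested.

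Epha4 encodes a receptor of ephrins that guides motor axons and limits their regrowth, and lower Epha4 goes with slower disease in animal models. Its 5 probe sets gave 1 positive and 4 negative estimates, none past the threshold. The brightest on average (1429021_at) was at 11.20, 11.02 and 11.30 on WT replicates 1, 2 and 3, and 11.22, 11.88 and 11.48 on SOD1 replicates 1, 2 and 3. The groups overlapped, with SOD1 replicates 2 and 3 above the WT arrays, and the change was 0.36 ± 0.28 (limma, adjusted p = 0.589), or 0.18 without SOD1 replicate 2. The second was at 11.53, 11.98 and 10.79 on WT replicates 1, 2 and 3, and 10.99, 11.61 and 10.53 on SOD1 replicates 1, 2 and 3, again with overlap, a change of -0.39 ± 0.38. It was -0.12 and -0.14 with WT replicate 2 or SOD1 replicate 3 left out, and -0.72 and -0.68 with WT replicate 3 or SOD1 replicate 2 left out. On the Xist-low arrays it was -0.90. The next 2 probe sets had changes of -0.32 ± 0.39 and -0.53 ± 0.48. With 1 array left out, the first of these ran from -0.77 (WT replicate 3) to -0.06 (WT replicate 2), and it was -0.73 on the Xist-low arrays. The other ran from -0.82 (WT replicate 3) to -0.1 (SOD1 replicate 2), and was -0.23 on the Xist-low arrays. The dimmest had the most negative estimate, -1.36 ± 0.85, through SOD1 replicate 3, at 5.30 and below background. Without that array it was -0.25, and with it as the only SOD1 array -3.59.

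Of 13 genes of EphA4 signalling, 0 passed, 5 estimates were positive and 8 negative, and the median was -0.18. Among the ligands, Efna1 was at -0.84 ± 0.39, lower on all 3 SOD1 arrays (limma, adjusted p = 0.349), and Efna5, an ephrin of motor axon guidance, at -0.46 ± 0.28. Fgfr1, a growth factor receptor that forms complexes with EphA4, was at -0.70 ± 0.26 (adjusted p = 0.252), also without overlap. Nck1, an adaptor, was at 0.46 ± 0.28, and the effectors Ngef and Chn1, which carry the signal to the cytoskeleton, were at 0.23 ± 0.36 and 0.10 ± 0.30.

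Timp3 encodes an inhibitor of metalloproteinases that is bound to the matrix. Its brightest probe set (1419089_at) was at 13.34, 13.28 and 12.72 on WT replicates 1, 2 and 3, and 12.30, 11.71 and 11.99 on SOD1 replicates 1, 2 and 3. All SOD1 arrays lay below all WT arrays, and the change was -1.11 ± 0.25, a signal 2.16-fold lower (limma, unadjusted p = 0.00105, adjusted p = 0.114). SOD1 replicate 3 alone against WT gave -1.12. The second was at 12.60, 12.36 and 10.55 on WT replicates 1, 2 and 3, and 10.99, 10.81 and 11.24 on SOD1 replicates 1, 2 and 3, where WT replicate 3 lay below all SOD1 arrays and the other WT arrays above them. Its change was -0.83 ± 0.46, and without WT replicate 3 it was -1.47 (limma, adjusted p = 0.0712), without WT replicate 1 -0.45 and without WT replicate 2 -0.56. The third had a change of -0.39 ± 0.36 and the dimmest one of 0.53 ± 0.49, the only positive estimate. The former ran from -0.59 without SOD1 replicate 3 to -0.25 without WT replicate 1, and was 0.010 on the Xist-low arrays. The latter was 0.099 without WT replicate 3, 0.20 without SOD1 replicate 1 and 0.047 on the Xist-low arrays. Markers of blood vessel cells, which also express Timp3, had negative estimates like its brightest probe set. Of 12 endothelial and mural markers tested, all 12 were below 0 and 1, Acta2, passed, with a median of -1.67. Among all 13123 genes, 0.152% passed on the lower side. Without SOD1 replicates 1 and 2 all 12 were below 0, with a median of -2.11, and 0 passed. With 1 array left out, 3 passed without WT replicate 3, 1 without SOD1 replicate 1 and 0 without any of the other 4. Without SOD1 replicate 3, 1 of the 12 estimates was positive and 11 were negative, with a median of -1.09. Their summed signal, over 14 genes, was 30365 to 72177 in WT and 6109 to 20391 in SOD1, with 1 or 2 at background on each WT array, 2 to 5 on each SOD1 array, and Anpep on all 6. The part of these cells in the Timp3 signal was not tested.

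The 250 bases before the RefSeq start of Timp3 (GRCm38.p6, chr10:86300162-86300411, plus strand) are shown as those of the gene with the second lowest p among the brightest probe sets, with capitals as before.
Timp3: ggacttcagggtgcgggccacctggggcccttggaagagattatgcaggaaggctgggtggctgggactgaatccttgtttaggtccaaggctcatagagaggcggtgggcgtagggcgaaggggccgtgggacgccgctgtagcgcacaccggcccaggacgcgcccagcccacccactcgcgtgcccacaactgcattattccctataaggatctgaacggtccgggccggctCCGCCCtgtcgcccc
They hold 1 match to GGGCGG, on the opposite strand and in 32.7% of all windows, and 0 to the other letters, and their GC content is 65.6%.

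The protease and inhibitor genes around Mmp9 and Timp3 were uneven. Of 13 tested, members included, 0 passed, 5 estimates were positive and 8 negative, and the median was -0.29. Timp2, an inhibitor of Mmp2 and other proteases, was at 16.01, 16.15 and 15.87 in WT and 15.76, 15.36 and 15.10 in SOD1, without overlap (-0.60 ± 0.16, limma, adjusted p = 0.143). Reck, a membrane-anchored inhibitor, also did not overlap (-1.58 ± 0.43, adjusted p = 0.15). Timp1, an inhibitor that binds Mmp9, had the highest estimate, 2.05 ± 0.69 (adjusted p = 0.214). It was at 10.53, 8.30 and 7.47 in WT and 11.55, 10.02 and 10.87 in SOD1, with WT replicate 1 among the SOD1 arrays. The proteases Mmp16 and Mmp2 were at 0.72 ± 0.35 and -1.09 ± 0.95.

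**Figure D4:**
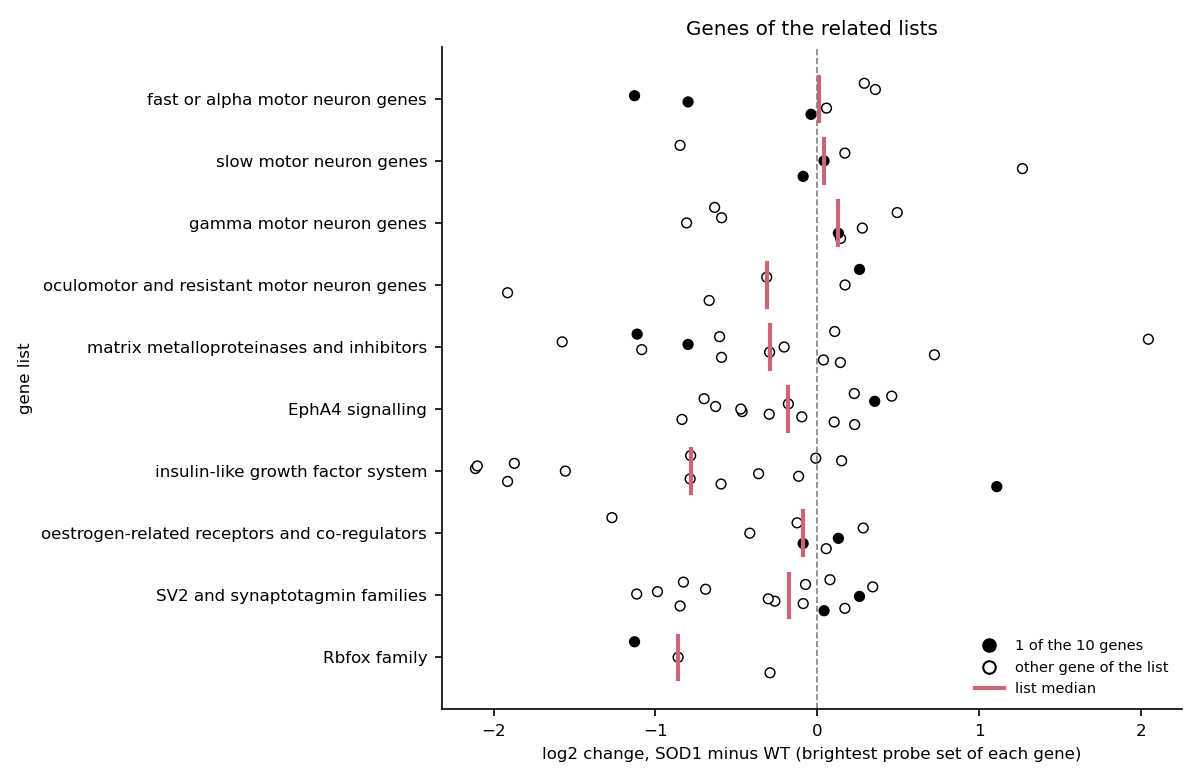
Log2 change, SOD1 minus WT, of the brightest probe set of each gene in the related lists, 1 row per list, with filled points for the 10 genes and a line at the list median. Igf1 lies at 1.11 to the right of the other 12 genes of its list, and the fast or alpha list holds 3 positive and 3 negative estimates.

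Over the 6 arrays, the genes whose level was most like that of the brightest Mmp9 probe set were Ank3 (Pearson r = 0.992), Zmynd8 (0.991) and Lamp2 (0.987), out of 13122 genes compared. For Syt13 they were Zfp64 (0.995), Ascl3 (0.99) and Iqgap1 (0.983), and for Igf1 they were Ciita (0.987), D430019H16Rik (0.986) and Zfp940 (0.983). With 6 points that share the same amplified RNA, and so many genes compared, these values only describe the arrays.

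**Figure D5:**
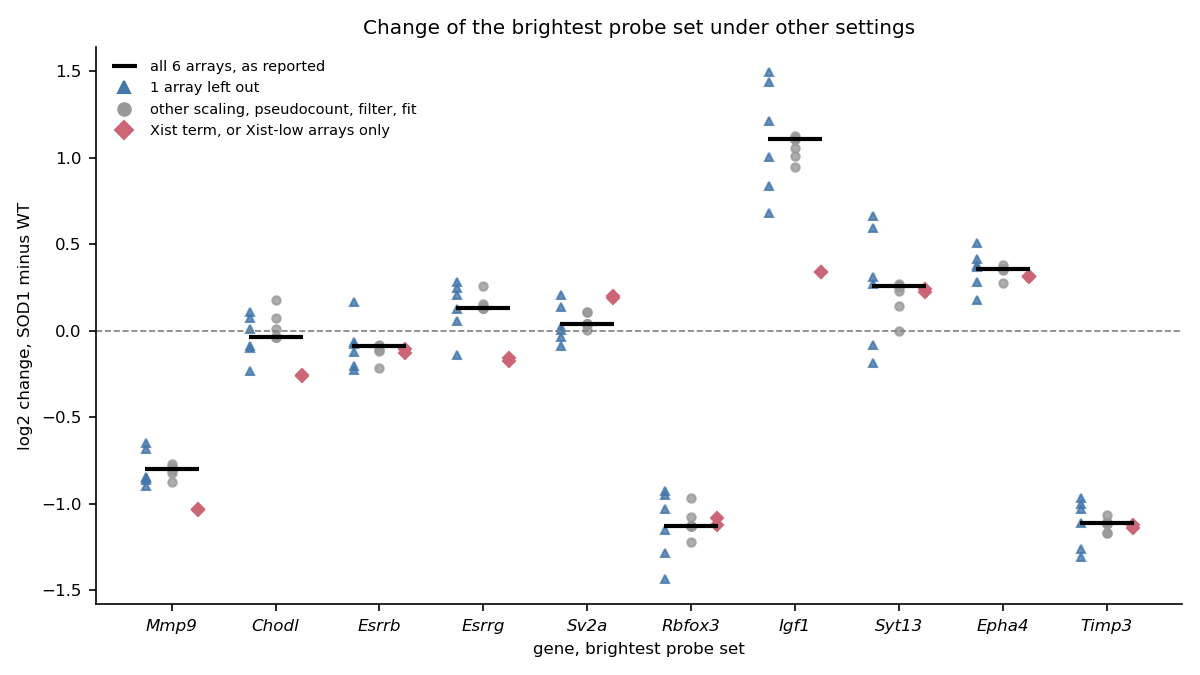
Log2 change, SOD1 minus WT, of the brightest probe set of each gene with all 6 arrays (black line), with each array left out (triangles), with other scaling, pseudocount, filter or fit (circles), and with a term for Xist or only the Xist-low arrays (diamonds). Mmp9, Rbfox3 and Timp3 stay below 0 and Igf1 and Epha4 above 0 in every setting drawn, and Chodl, Esrrb, Esrrg, Sv2a and Syt13 fall on both sides. Of the probe sets not drawn, the other 4 of Epha4 stay below 0 and the dimmest of Timp3 above 0 in every setting.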

How the data were processed

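Affymetrix mouse arrays measured 3 WT and 3 SOD1 samples of brainstem motor neuron RNA after 2 rounds of T7-based amplification, per the labels. The file deposited by the authors holds a linear signal intensity for each probe set on each array (0.688 to 232137), with a 2% trimmed mean of 2500.02 on every array. No source used here names the algorithm behind them. Amplification from the 3' end can make probe sets far from it read low. Of 45101 probe sets, 64 controls were left out. The arrays were quantile normalised, 16 was added and log2 taken, and the 27022 probe sets whose mean exceeded the 40th percentile were kept. A probe set below that was fitted without the filter. The groups were compared by limma 3.58.1 under R 4.3.3 (variance trend, two-sided, Benjamini-Hochberg, threshold 0.05). The step was tested on simulated data. Arrays correlated at 0.918 to 0.957 within groups and 0.901 to 0.937 between them.

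Of the probe sets other than controls, the platform annotation gives 1 symbol to 34945 and several to 932, and 9160 are unnamed here. All 10 genes matched the RefSeq table by Entrez identifier. Related genes and markers come from lists chosen from general knowledge, on the brightest probe set per gene. The named genes are all members and, per list, up to 4 other genes with the smallest p, with others named as examples after their values were seen. For likeness, the rule took the 3 genes with the highest Pearson r with Mmp9, Syt13 and Igf1. The members and lists were chosen with earlier results of these data known. Motifs were chosen after the data were seen. Alternatives were other scalings, pseudocounts, filters and fits, the replicate number as a block, a term for Xist and arrays left out. Those for Syt2 and the marker lists were chosen after seeing the data. Figures were drawn with matplotlib 3.10.9.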

Additional observations from a re-analysis of the deposited data

How the results depend on the processing

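With 3 arrays per group and dim signals near background, the test could miss changes of this size, so a probe set that did not pass is not shown to be unchanged. Over 17 alternatives at most per probe set, 20 of the 28 kept their sign, and 1 probe set passed once, that of Rbfox3 without WT replicate 3. Leaving out 1 array gave 0 or 1 passing probe set among the 10 genes and 1 to 79 among all, against 50. That count was 87 with a pseudocount of 64, 106 with a filter at the 60th percentile, 100 with array weights, 190 at a threshold of 0.10 and 0 without a variance trend (3248 at an unadjusted p under 0.05, limma). With the replicate block it was 76. Arrays of the same number did not deviate together (correlations of 0.03, -0.04 and -0.01, and 1 of 6 arrays closest to its own number), so the numbers are not taken to pair the samples, and the block brought 0 of the probe sets of the 10 genes past the threshold. Chodl turned to 0.071 with values as deposited, 0.18 with median centring and 0.0086 with array weights. The bright Esrrg probe set turned to -0.16 with the Xist term and -0.18 with the Xist-low arrays alone, the dimmest to 1.82 under both and 0.063 with array weights. Syt13 was at -0.0016 with array weights, and the Timp3 probe set 1449334_at at 0.010 with the Xist-low arrays alone. With 1 array left out, ranges were -0.23 to 0.11 for Chodl, -0.22 to 0.17 and -0.21 to 1.02 for the brightest and dimmest Esrrb probe sets, -0.14 to 0.28 and -1.08 to 0.64 for the brightest and dimmest of Esrrg, -0.087 to 0.21 for Sv2a and -0.19 to 0.66 for Syt13. The cause of these turns was not tested. With SOD1 replicates 1 and 2 left out, the 1 SOD1 array is assumed to vary like the WT arrays.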
